A study of Mus musculus with 10 samples.

Results

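The transcripts described here encode PDGF and FGF growth factors and their receptors, 10 listed mouse genes: the ligands Pdgfa, Pdgfb, Pdgfc, Fgf2, Fgf7 and Fgf21 and the receptors Pdgfra, Pdgfrb, Fgfr1 and Fgfr2. A gene was taken where a row of the expression table carried its symbol, with the row of the highest mean where there were several, and a gene under 1 RPKM in every library was to be called not expressed. Of the 10 genes, 5 had a row of their own (Pdgfa, Pdgfc, Pdgfra, Pdgfrb and Fgfr1), out of 18430 rows in all. Another 3 appeared only in rows that join a gene with another gene, Fgf2 with Bbs12, Fgf7 with Galk2 and Fgfr2 with Ctbp2, so their values belong to no one gene. The table used here holds no row for Pdgfb or Fgf21, which were not analysed here. All 5 genes with their own row passed the filter for testing, and none was under 1 RPKM in every library.

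The 10 sequenced cultures were of NIH3T3, a fibroblast line from mouse embryos. They were 4 clones that stably overexpress FOXP2, a forkhead transcription factor, 4 clones that stably overexpress FOXP2-CPED1, named in the series as a FOXP2 arrangement, and 2 controls, the parental cells and cells with the vector. Each clone and each control gave 1 library, so an SD within a construct is a spread between clones, and p-values reflect only how far these cultures spread. The labels do not call the vector cells a clone, so the derivation of clones and the construct cannot be told apart. Both constructs were set against the same 2 control libraries, so the comparisons with the control are not independent of each other. In bulk RNA, fewer cells with a transcript and less of it per cell cannot be told apart.

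PDGFs are secreted dimers that bind receptor tyrosine kinases, and fibroblasts and other mesenchymal cells are their classical responders, which they drive into the cell cycle. PDGF-A and PDGF-C act through the alpha receptor (Pdgfra), while PDGF-B binds both the alpha and the beta receptor (Pdgfrb). FGFs bind FGF receptors together with heparan sulphate, and both receptor families pass their signal through adaptors to the RAS-MAPK and PI3K pathways and on to immediate early genes. FGF7 is made by fibroblasts and acts on epithelial cells through an FGFR2 isoform, whereas FGF2 acts on many mesenchymal cells through FGFR1.

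Promoter sequences from RefSeq (build GRCm38.p6) were used for 3 of the 5 genes, Pdgfa with 2 start sites, Pdgfc and Pdgfra. Pdgfrb was left out of the search and Fgfr1 had no window, so the counts of matches do not cover these receptors. Those of Pdgfra and Pdgfc are shown because these genes varied most and least between clones. Each run is the 250 bases before the annotated start on the plus strand, at chr5:75152001-75152250 for Pdgfra and chr3:81036166-81036415 for Pdgfc, and no letter is in capitals because no searched motif was found.
Pdgfra: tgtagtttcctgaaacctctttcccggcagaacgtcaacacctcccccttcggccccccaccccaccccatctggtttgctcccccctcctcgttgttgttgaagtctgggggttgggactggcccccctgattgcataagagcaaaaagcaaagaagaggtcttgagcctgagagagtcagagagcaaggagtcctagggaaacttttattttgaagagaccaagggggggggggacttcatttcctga
Pdgfc: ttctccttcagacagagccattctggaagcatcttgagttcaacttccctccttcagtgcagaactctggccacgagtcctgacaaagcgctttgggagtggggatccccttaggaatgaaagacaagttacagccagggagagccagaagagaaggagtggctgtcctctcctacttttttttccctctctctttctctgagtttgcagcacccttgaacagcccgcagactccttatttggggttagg
The motifs were searched on both strands of windows that reach 50 bases past the start, 300 bases in all, and an overlap between motifs was allowed. The forkhead motif TGTTTAC was in 3.65% of all 32851 promoter windows of that length. The FOXP motif TATTTGT was in 3.63% of these windows, and the related FOXP motif TATTTAT in 5.6%. The EGR motif GCGNGGGCG was in 5.55% of them. The CRE motif TGACGTCA was in 1.79% and the AP-1 motif TGANTCA in 7.81%. The 4 windows of Pdgfra, Pdgfc and Pdgfa held 0 matches to these motifs. The search was set to stop at any match in the windows kept, and Pdgfrb was outside them. This 0 is therefore no finding about the listed genes as a set. The 250 bases shown were 54.4% G or C for Pdgfra and 50.8% for Pdgfc.

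The libraries had 794682 to 944602 summed RPKM and 12696 to 13172 rows at 1 RPKM or more. RPKM is already divided by library size, so these sums do not measure depth. Relative depth, read from steps among the low RPKM values with the parental library as 1, ran from 0.911 to 1.32. In FOXP2 clones 2 and 4 and in FOXP2-CPED1 clone 3, both mitochondrial rows of the table stood at 0, and results that moved without these 3 libraries are given with and without them. Fibroblast markers were abundant: 7 of 9 had their own row and summed to 5081 to 6066 RPKM in FOXP2 clones, 5386 to 6986 in FOXP2-CPED1 clones and 7053 to 7334 in the controls. Of 6 epithelial markers 1 had a row, Cdh1, which stayed at or below 2.37 RPKM in all libraries, and of 5 blood and immune markers 0 had a row of their own. Of 5 endothelial markers 2 had a row: Cdh5 stayed at or below 0.536 RPKM, and Vwf had 17.1 RPKM in FOXP2 clone 4, 1.54 to 4.25 in the other FOXP2 clones, 2.10 to 5.56 in FOXP2-CPED1 clones and 3.71 to 5.37 in the controls. The mouse Foxp2 row was low throughout, with 0.145 to 1.02 RPKM in FOXP2 clones, 0.0674 to 0.33 in FOXP2-CPED1 clones and 0.0785 to 0.0798 in the controls. The labels do not give the species of the introduced sequence, so this row does not check them.

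RPKM divides reads by transcript length and by the size of the library, so levels of different genes can be set side by side. Fgfr1 was the most abundant of the 5 transcripts in every library, with 139 to 335 RPKM. Pdgfra with 28.0 to 177 RPKM and Pdgfrb with 23.4 to 70.3 RPKM came next, and their ranges overlapped. The ligands had Pdgfa at 15.8 to 41.9 RPKM and Pdgfc at 16.3 to 23.7 RPKM, and their ranges overlapped too. Pdgfa was below both PDGF receptors in 8 of the 10 libraries and above both in FOXP2 clone 2 and FOXP2-CPED1 clone 4.

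**Figure D1:**
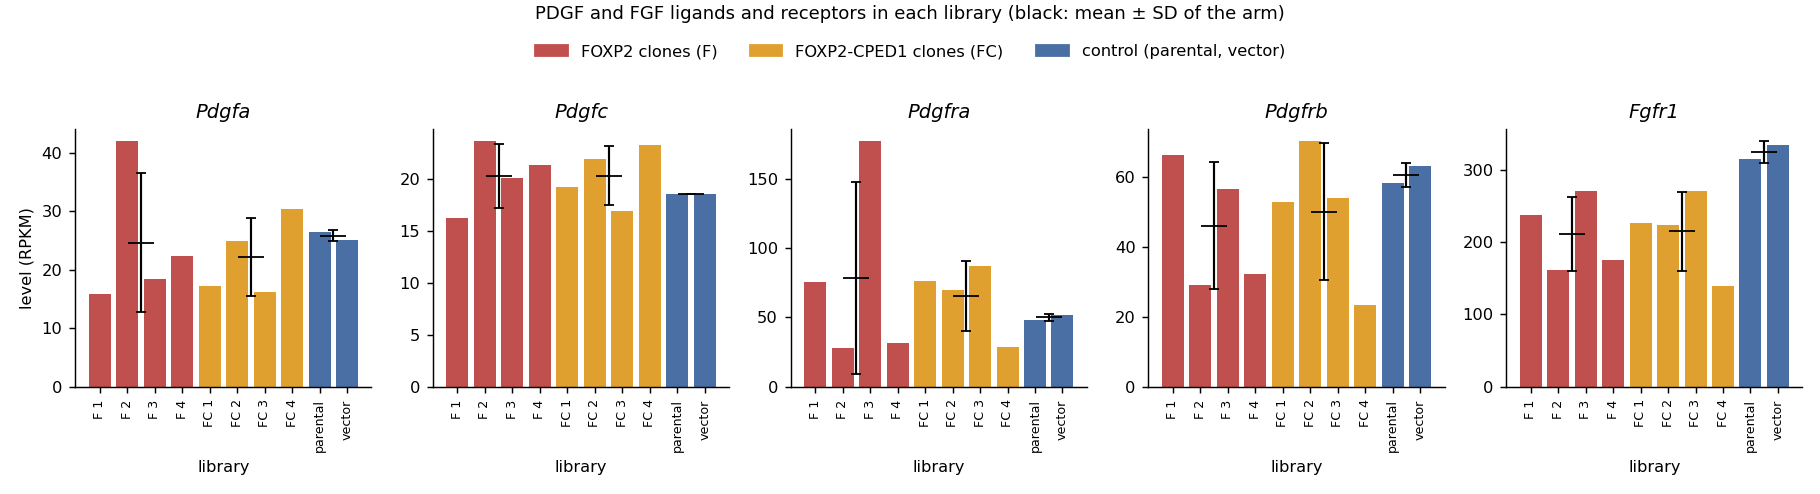
Level in RPKM (vertical axis, from 0) of the 5 genes with their own row in each of the 10 libraries (horizontal axis: F for FOXP2 clones, FC for FOXP2-CPED1 clones, then the parental and vector controls); black marks give the mean ± SD of the 4, 4 and 2 libraries of a group. Fgfr1 is below both controls in all 8 clones, and Pdgfra reaches 177 RPKM in FOXP2 clone 3.

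Pdgfa encodes the A chain, a ligand of the alpha receptor. It had 15.8, 41.9, 18.5 and 22.3 RPKM in FOXP2 clones 1 to 4 and 17.2, 24.8, 16.2 and 30.3 RPKM in FOXP2-CPED1 clones 1 to 4, against 26.5 and 25.1 RPKM in the parental and vector controls. In each construct 1 clone was above both controls, FOXP2 clone 2 and FOXP2-CPED1 clone 4, and the other 3 were below, so the clones lay on both sides of the control. The difference on the log2(RPKM + 1) scale was -0.17 ± 0.36 (SE) for FOXP2 (adjusted p = 0.939, limma, 95% interval -0.97 to 0.63). For FOXP2-CPED1 it was -0.26 ± 0.36 (adjusted p = 0.923, interval -1.06 to 0.54). The FOXP2 value depended on the libraries kept and their weight. It was 0.0038 without FOXP2 clone 1, -0.45 without FOXP2 clone 2 and -0.57 without the 3 libraries that lacked mitochondrial RPKM (adjusted p = 0.555, limma). With library quality weights it was -0.59 and passed (adjusted p = 0.0473, limma), though those weights called 2095 of 12842 rows. They gave FOXP2 clone 1 a weight of 6.62, against 0.196, 0.367 and 0.563 for FOXP2 clones 2 to 4, so the weighted FOXP2 values rest mostly on clone 1. The FOXP2-CPED1 value was -0.13 without the 3 libraries.

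Pdgfc encodes the C chain, which is secreted in a latent form and cut by proteases before it binds. It was the steadiest of the 5 genes, with 16.3, 23.7, 20.1 and 21.4 RPKM in FOXP2 clones 1 to 4 and 19.3, 22.0, 17.0 and 23.3 RPKM in FOXP2-CPED1 clones 1 to 4, against 18.6 RPKM in both controls. In each construct 3 clones were above the controls and 1 below. FOXP2 clones differed by 0.11 ± 0.17 on the log2 scale (adjusted p = 0.903, limma, interval -0.28 to 0.50) and FOXP2-CPED1 clones by 0.12 ± 0.17 (adjusted p = 0.930, interval -0.27 to 0.51). Without the 3 libraries that lacked mitochondrial RPKM, the FOXP2 value was -0.0346 and the FOXP2-CPED1 value 0.20.

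Pdgfra, the alpha receptor, which is also a common marker of fibroblasts and their progenitors, differed most between clones of the same construct. It had 75.9, 28.0, 177 and 31.9 RPKM in FOXP2 clones 1 to 4, 76.0, 69.8, 87.1 and 28.9 RPKM in FOXP2-CPED1 clones 1 to 4, and 48.3 and 51.9 RPKM in the parental and vector controls. FOXP2 clones 1 and 3 stood above both controls and clones 2 and 4 below. With FOXP2-CPED1, clones 1 to 3 stood above and clone 4 below. The highest library held 6.33 times the level of the lowest, and both were FOXP2 clones. The mean was 78.2 ± 69.3 RPKM (SD, n = 4) with FOXP2 and 65.5 ± 25.4 RPKM (n = 4) with FOXP2-CPED1, against 50.1 ± 2.6 RPKM (n = 2) in the control. Neither difference exceeded the spread between clones: 0.23 ± 0.68 on the log2 scale for FOXP2 (adjusted p = 0.958, limma, interval -1.27 to 1.74) and 0.27 ± 0.68 for FOXP2-CPED1 (adjusted p = 0.964, interval -1.23 to 1.77). The FOXP2 value was -0.29 without FOXP2 clone 3, 0.58 without FOXP2 clone 2 and 0.52 with library quality weights. Without the 3 libraries that lacked mitochondrial RPKM it was 1.195 (adjusted p = 0.557, limma), and the FOXP2-CPED1 value was 0.0976 (adjusted p = 0.964).

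Pdgfrb, the beta receptor, which in fibroblasts carries the response to PDGF-B, had 66.3, 29.2, 56.6 and 32.4 RPKM in FOXP2 clones 1 to 4 and 53.1, 70.3, 54.1 and 23.4 RPKM in FOXP2-CPED1 clones 1 to 4, against 58.4 and 63.3 RPKM in the parental and vector controls. FOXP2 clone 1 and FOXP2-CPED1 clone 2 exceeded both controls, and the other 6 clones were below them. On the log2 scale the difference was -0.47 ± 0.43 for FOXP2 (adjusted p = 0.828, limma, interval -1.44 to 0.49) and -0.37 ± 0.43 for FOXP2-CPED1 (adjusted p = 0.905, interval -1.33 to 0.59). Without the 3 libraries with mitochondrial rows at 0, which include 2 of the 4 FOXP2 clones, the FOXP2 difference was 0.0127. A second, lower Pdgfrb row held 0.00025 to 8.06 RPKM, and with both rows summed the difference was -0.52 for FOXP2 and -0.44 for FOXP2-CPED1.

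RPKM is per length, so the ratio of the alpha to the beta receptor transcript can be read within a library. It was 1.14, 0.959, 3.12 and 0.985 in FOXP2 clones 1 to 4 and 1.43, 0.993, 1.61 and 1.24 in FOXP2-CPED1 clones 1 to 4, against 0.827 and 0.821 in the parental and vector controls. On these rows the 8 clones had a higher ratio than both controls, with FOXP2 clone 2 the nearest to them. With both Pdgfrb rows summed, 7 of 8 clones did: FOXP2 clone 2 was at 0.766, between the parental and vector controls at 0.727 and 0.776. This ratio was not tested. Pdgfra was the higher of the receptors in 5 of 8 clones and Pdgfrb in both controls.

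**Figure D2:**
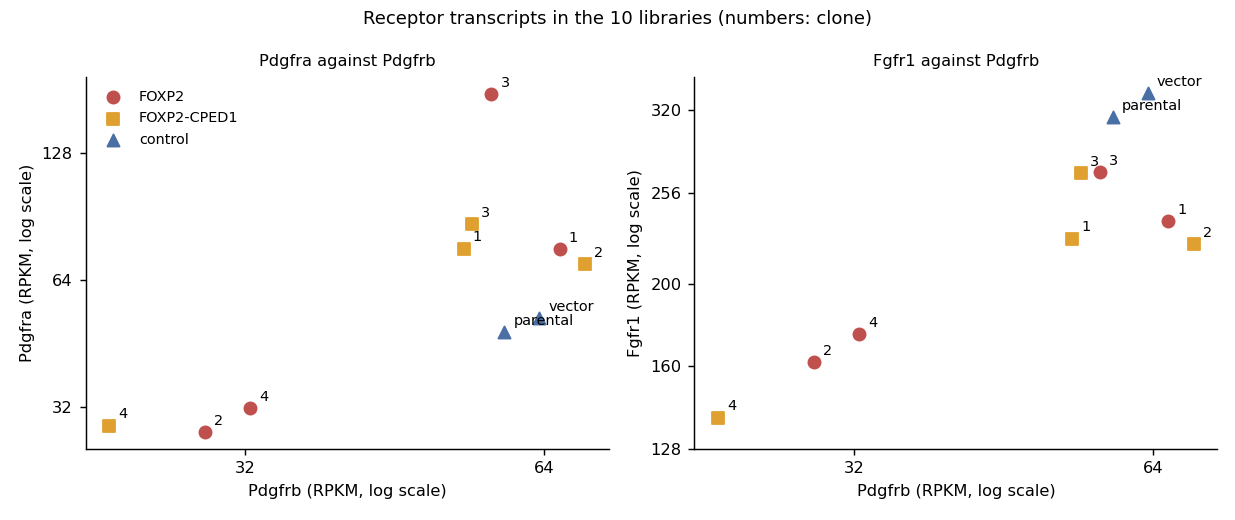
Pdgfra (left) and Fgfr1 (right) against Pdgfrb in the 10 libraries, in RPKM on log axes, with clones by their number; circles are FOXP2 clones, squares FOXP2-CPED1 clones and triangles the controls. FOXP2 clones 2 and 4 and FOXP2-CPED1 clone 4 are the 3 lowest libraries for all 3 receptors.

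Fgfr1, the FGF receptor of mesenchymal cells, was lower in all 8 clones than in both controls, though it passed the test in no comparison. It had 237, 162, 270.4 and 175 RPKM in FOXP2 clones 1 to 4 and 226, 223, 270.1 and 139 RPKM in FOXP2-CPED1 clones 1 to 4, against 314 and 335 RPKM in the parental and vector controls. The closest clone, FOXP2 clone 3, and the lower control were 270.4 and 314 RPKM, so the groups did not overlap. Its mean was 211 ± 51.5 RPKM (SD, n = 4) with FOXP2 and 215 ± 54.6 RPKM (n = 4) with FOXP2-CPED1, against 325 ± 14.6 RPKM (n = 2) in the control. The log2 difference was -0.65 ± 0.28 for FOXP2 (limma, unadjusted p = 0.0397, adjusted p = 0.546, interval -1.26 to -0.04). For FOXP2-CPED1 it was -0.63 ± 0.28 (limma, unadjusted p = 0.0439, adjusted p = 0.663, interval -1.25 to -0.02). With all 8 clones against the control it was -0.64 ± 0.25 (limma, unadjusted p = 0.0285, adjusted p = 0.467, interval -1.20 to -0.08).

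Without the 3 libraries with mitochondrial rows at 0, the Fgfr1 difference was -0.36 for FOXP2, -0.76 for FOXP2-CPED1 and -0.56 for all clones. With library quality weights it passed for FOXP2 (-0.49, adjusted p = 0.0352, limma) and for all clones (-0.47, adjusted p = 0.0341), but those weights called 2095 of 12842 rows with FOXP2. The adjusted p of the FOXP2 difference ran from 0.0352 to 1 over all alternatives. The smooth muscle marker Acta2, an actin of contractile cells and of activated fibroblasts, was also below both controls in all 8 clones. It had 28.6 to 204 RPKM in FOXP2 clones and 71.9 to 414 in FOXP2-CPED1 clones against 482 to 491 in the controls. In 11.8% of all tested rows the 8 clones did not overlap the controls, in either direction. Smooth muscle and pericyte markers, of which 3 of 5 had a row, summed to 30.3 to 208.0 RPKM in FOXP2 clones, 76.9 to 419 in FOXP2-CPED1 clones and 487.0 to 496 in the controls, and nearly all of each sum was Acta2. Neither of the other 2 was below both controls in all 8 clones. Cnn1, a calponin of smooth muscle, was above both controls in FOXP2 clone 2 (2.55 RPKM) and FOXP2-CPED1 clones 1 and 4 (2.99 and 3.00 RPKM), against 1.94 and 1.97 RPKM in the parental and vector controls. In all other clones Cnn1 was below both. Des, the muscle filament desmin, was at 3.34 RPKM in FOXP2 clone 4, between the controls at 3.08 and 3.57 RPKM, and below both in the other 7 clones. The part of such cells in the Fgfr1 level was not tested.

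Among the joined rows, that of Fgf2 and Bbs12 was low, with 3.34, 5.65, 3.90 and 3.85 RPKM in FOXP2 clones 1 to 4 and 2.81, 2.54, 2.59 and 3.34 RPKM in FOXP2-CPED1 clones 1 to 4, against 2.60 and 2.23 RPKM in the parental and vector controls. All 4 FOXP2 clones were above both controls, while the FOXP2-CPED1 clones overlapped them. A lack of overlap between FOXP2 and control, in either direction, was found in 19.5% of all tested rows. Fgf2 encodes basic FGF and Bbs12 a chaperonin-like protein of the primary cilium, and the row cannot say which of the genes differed. The log2 difference was 0.58 ± 0.20 for FOXP2 (adjusted p = 0.375, limma, interval 0.15 to 1.02) and 0.16 ± 0.20 for FOXP2-CPED1 (adjusted p = 0.910, interval -0.28 to 0.59). It was -0.43 ± 0.16 for FOXP2-CPED1 against FOXP2 (limma, unadjusted p = 0.0233, adjusted p = 0.99984, interval -0.78 to -0.07), and -0.25 without the 3 libraries that lacked mitochondrial RPKM. With library quality weights the FOXP2 difference was 0.38 and passed (adjusted p = 0.0335, limma). Those weights rest mostly on FOXP2 clone 1 within FOXP2 and called 2095 of 12842 rows.

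The row of Galk2, a sugar kinase, and Fgf7 was abundant, with 148, 213, 216 and 95.5 RPKM in FOXP2 clones 1 to 4 and 202, 171, 197 and 143 RPKM in FOXP2-CPED1 clones 1 to 4, against 211 and 216 RPKM in the parental and vector controls. All 4 FOXP2-CPED1 clones were below both controls. A lack of overlap between FOXP2-CPED1 and control, in either direction, was found in 25.6% of all tested rows. FOXP2 clone 3 was above both, clone 2 lay between them, and FOXP2 clone 4 was the lowest library of all. Its log2 difference was -0.42 ± 0.30 for FOXP2 (adjusted p = 0.775, limma, interval -1.09 to 0.26) and -0.27 ± 0.30 for FOXP2-CPED1 (adjusted p = 0.898, interval -0.94 to 0.40). The FOXP2 value was -0.53 with library quality weights, which passed (adjusted p = 0.0283, limma), and -0.25 without the 3 libraries that lacked mitochondrial RPKM. The weights rest mostly on FOXP2 clone 1 within FOXP2 and called 2095 of 12842 rows.

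The row of Fgfr2 and Ctbp2, a transcriptional corepressor, had 34.7, 39.2, 34.3 and 36.1 RPKM in FOXP2 clones 1 to 4 and 42.1, 37.2, 48.3 and 30.2 RPKM in FOXP2-CPED1 clones 1 to 4, against 38.0 and 39.3 RPKM in the parental and vector controls. Both constructs overlapped the controls. Its log2 difference was -0.10 ± 0.17 for FOXP2 (adjusted p = 0.923, limma, interval -0.49 to 0.29) and 0.01 ± 0.17 for FOXP2-CPED1 (adjusted p = 0.997, interval -0.38 to 0.40). These were -0.16 and -0.0924 without the 3 libraries that lacked mitochondrial RPKM. Fgfr2 and Ctbp2 are not direct neighbours: in the RefSeq annotation of GRCm38.p6, 30 protein-coding genes start between them, against 1 between Fgf7 and Galk2 and 0 between Fgf2 and Bbs12.

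**Figure D3:**
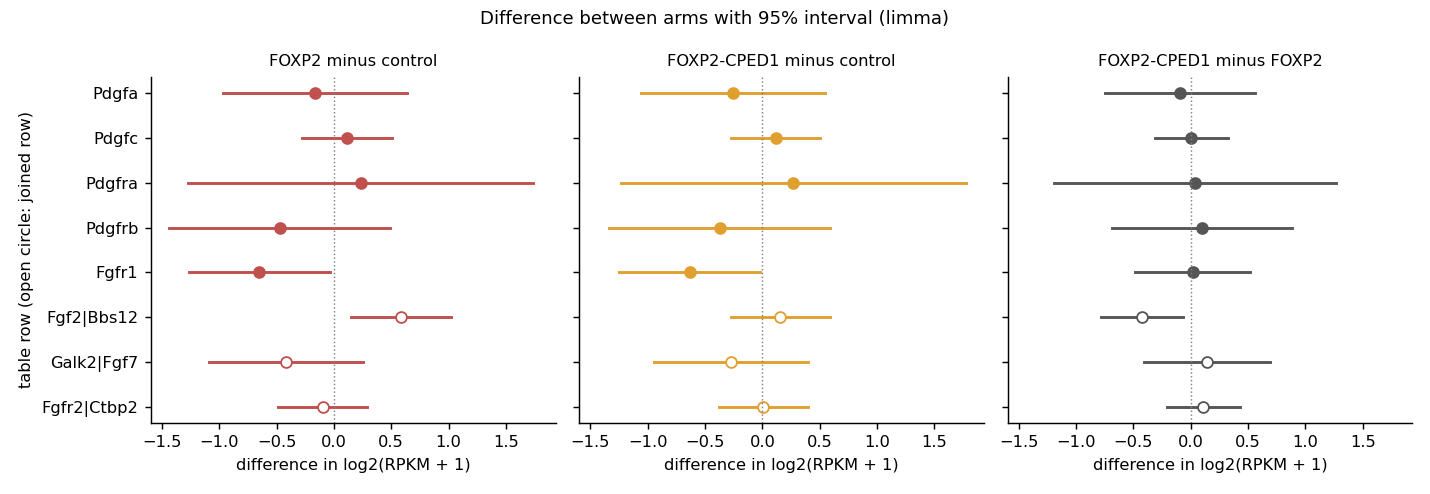
Differences in log2(RPKM + 1) with 95% intervals from limma (horizontal axis) for the 5 genes with their own row (filled) and the 3 joined rows (open), for FOXP2 minus control, FOXP2-CPED1 minus control and FOXP2-CPED1 minus FOXP2. The Fgfr1 intervals lie below 0 against the control, at -1.26 to -0.04 and -1.25 to -0.02, and the Pdgfra intervals are the widest.

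Of the 5 genes with their own row, 0 rose and 0 fell with FOXP2 by limma at an adjusted p of 0.05, where 0.436% of the 12842 tested rows were called, and 1 (Fgfr1) had an unadjusted p under 0.05. With FOXP2-CPED1 the counts were again 0 rising, 0 falling and 1 with an unadjusted p under 0.05, where 0.35% of rows were called. With all 8 clones against the control they were 0, 0 and 1, where 0.537% of rows were called. The library groups did not overlap for 1 of the 5, Fgfr1, in each of these comparisons. That was so for 19.5% of all tested rows with FOXP2, 25.6% with FOXP2-CPED1 and 11.8% with all clones, so 1 gene in 5 is near the share found anywhere in the table. The median log2 difference of the 5 genes was -0.17 with FOXP2 and -0.26 with FOXP2-CPED1, beside 0.02 and 0.0016 over all tested rows.

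FOXP2-CPED1 clones and FOXP2 clones were not told apart by these genes. None of the 5 was called by limma, none had an unadjusted p under 0.05, and none was without overlap, while 0% of all tested rows were called, 278 had an unadjusted p under 0.05 and 1.37% did not overlap. The log2 difference, FOXP2-CPED1 minus FOXP2, was -0.09 for Pdgfa (interval -0.75 to 0.56), 0.003 for Pdgfc (-0.31 to 0.32) and 0.04 for Pdgfra (-1.19 to 1.26). It was 0.10 for Pdgfrb (-0.68 to 0.89) and 0.02 for Fgfr1 (-0.48 to 0.52). These intervals leave room for sizeable differences in Pdgfra and Pdgfrb in either direction, and a narrower one in Pdgfc. Without the 3 libraries with mitochondrial rows at 0, the value was 0.44 for Pdgfa, 0.23 for Pdgfc, -1.10 for Pdgfra, -0.45 for Pdgfrb and -0.40 for Fgfr1, none of them past the threshold.

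The spread between clones of a construct, as the SD of log2(RPKM + 1) over 4 clones, was 1.22 for Pdgfra with FOXP2 and 0.71 with FOXP2-CPED1. Among the 500 tested rows nearest in mean level, these SDs stood at percentiles 99.8 and 97.2. Pdgfrb had an SD of 0.57 with FOXP2 and 0.67 with FOXP2-CPED1, at percentiles 88.2 and 95. Pdgfa had 0.59 and 0.41 (percentiles 90.8 and 86.4), Fgfr1 0.35 and 0.41 (62.8 and 84.8), and Pdgfc 0.22 and 0.19 (36.8 and 49.6), in the same order of constructs. The median SD of the rows near Pdgfra was 0.27 with FOXP2 and 0.19 with FOXP2-CPED1.

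The receptors were low in the same clones. FOXP2 clones 2 and 4, with clone 4 of FOXP2-CPED1, were the 3 lowest of the 10 libraries for Pdgfra, Pdgfrb and Fgfr1 alike, and 0 of the 5 genes had them as the 3 highest. These libraries were picked as the 3 lowest for Pdgfra, so its place among them was fixed in advance. Only Pdgfrb and Fgfr1 were found to share that order. The same 3 libraries were the lowest in 5.67% of all tested rows (728 of 12842) and the highest in 5.93% (762). FOXP2 clones 2 and 4 have mitochondrial rows at 0 and FOXP2-CPED1 clone 4 does not. Relative depth, read from steps among the low RPKM values with the parental library as 1, was 1.1 to 1.32 in these 3 libraries and 0.911 to 1.18 in the other 7, and the part of depth was not tested. Of the 7 fibroblast markers with their own row, 3 also had these libraries as their lowest. In FOXP2 clones 2 and 4 and FOXP2-CPED1 clone 4, the matrix proteoglycan gene Dcn had 74.8, 127.5 and 34.8 RPKM, against 202 to 342 RPKM in the other 7 libraries. In the same order the collagen gene Col3a1 had 169.9, 407 and 208 RPKM, against 413 to 906 RPKM in the other 7. The surface marker Thy1 had 105.88, 61.8 and 96.5 RPKM, against 105.91 to 155.9 RPKM in the other 7. For Col3a1 and Thy1 the highest of the 3 was thus nearly level with the next library. For Dcn it was at 127.5 RPKM, with the next library at 202 RPKM. Col1a1, Col1a2, Col5a1 and Vim did not have these as the 3 lowest. For Col1a2, FOXP2 clone 2 and FOXP2-CPED1 clone 4 were lowest, while Vim was highest among the clones in FOXP2 clone 2 (2420 RPKM). The part of these fibroblast markers in the receptor levels was not tested. The ligands did not share this order: Pdgfa and Pdgfc were both highest in FOXP2 clone 2, next highest in FOXP2-CPED1 clone 4 and lowest in FOXP2 clone 1.

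The 3 genes that varied most over the 10 libraries were Pdgfra, Pdgfrb and Pdgfa, and the rows nearest to each were found by the root mean square difference of log2 values, each centred on its own mean, among 11566 single-gene rows. Nearest to Pdgfra were Adamts7, a metalloprotease, at 0.243, Mterf4, a mitochondrial translation factor, at 0.248, and Zfp36l1, which binds AU-rich RNA, at 0.264, where the median row was at 0.824. Adamts7 had 9.87, 6.15, 32.7 and 3.78 RPKM in FOXP2 clones 1 to 4 and 14.3, 10.5, 12.6 and 4.95 RPKM in FOXP2-CPED1 clones 1 to 4, against 6.83 and 7.16 RPKM in the parental and vector controls. Like Pdgfra it peaked in FOXP2 clone 3. Nearest to Pdgfrb were Matn2, a matrix adaptor protein, at 0.130, Pdp1, a mitochondrial phosphatase, at 0.171, and Gpsm1, a G protein signalling modulator, at 0.177, with a median of 0.577. Fgfr1, at 0.273, was the 59th nearest to Pdgfrb. Nearest to Pdgfa were Ccdc86 at 0.116, Emg1, a ribosome biogenesis factor, at 0.136, and the predicted gene Gm28901 at 0.148, with a median of 0.472.

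Of 97 other genes of PDGF and FGF signalling, 73 had a row of their own and 71 were tested. With FOXP2, 0 rose and 2 fell, Plau and Srf, and with FOXP2-CPED1, 0 rose and 2 fell, Egr1 and Srf, where 0.436% and 0.35% of all tested rows were called. At an unadjusted p under 0.05 there were 13 of 71 (18.3%) with FOXP2 and 11 (15.5%) with FOXP2-CPED1, beside 8.52% and 7.28% of all tested rows. The list was chosen with earlier results of these data known, so no share of the 71 given here tests the pathway. Both constructs were also set against the same controls. With all 8 clones against the control, Plau, Egr1 and Srf fell, with log2 differences of -2.36, -2.14 and -2.01 (adjusted p = 0.0418, 0.029 and 0.00142, limma), where 0.537% of all tested rows were called. Over the alternatives these adjusted p-values reached up to 0.511, 0.42 and 0.0654. Between the constructs 0 of 71 were called by limma, and 6 (8.45%) had an unadjusted p under 0.05, beside 0% called and 278 of 12842 (2.16%) with such a p over all tested rows. The median log2 difference over the 71 was -0.05 with FOXP2 and -0.06 with FOXP2-CPED1, beside 0.02 and 0.0016 over all tested rows.

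**Figure D4:**
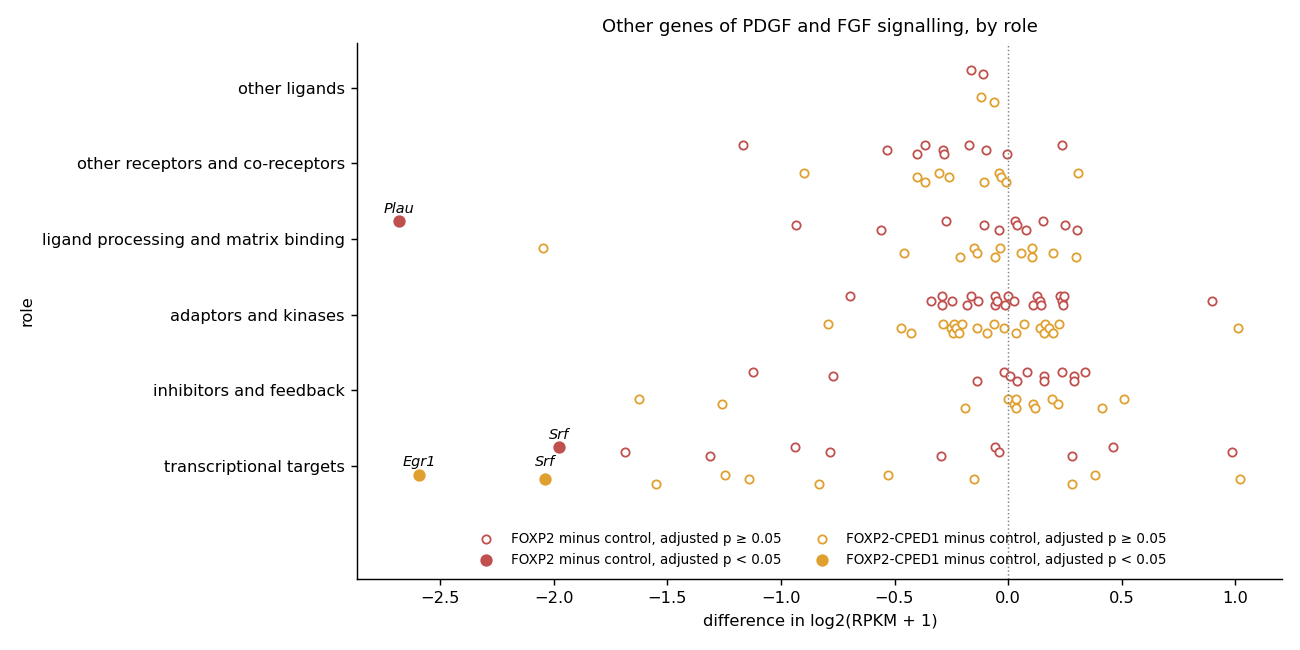
Differences in log2(RPKM + 1) (horizontal axis) of the 71 tested pathway genes with their own row, by role, for FOXP2 minus control and FOXP2-CPED1 minus control; filled points have an adjusted p under 0.05 (limma). Plau and Srf are the filled points for FOXP2, and Egr1 and Srf those for FOXP2-CPED1.

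Of 11 other ligands 2 were measured and 0 passed. Fgf10, a mesenchymal ligand of FGFR2, had 9.55 ± 2.47 RPKM in FOXP2 clones and 10.6 ± 3.66 in FOXP2-CPED1 clones, against 10.6 ± 1.02 in the control (SD, n = 4, 4 and 2 here and below). The intracellular Fgf11 stayed near 1 RPKM, with 0.936 ± 0.702 and 0.879 ± 0.471 in the clones against 1.00 ± 0.233. Of 16 other receptors and co-receptors 10 were measured and 0 passed. For each construct 9 of these 10 differences were below 0, some of them close to 0. Over all 71 tested pathway genes, 41 were below 0 with FOXP2 and 43 with FOXP2-CPED1. The syndecan Sdc4, a heparan sulphate co-receptor for FGFs, had 38.3 ± 17.9 RPKM in FOXP2 clones and 42.7 ± 5.1 in FOXP2-CPED1 clones, against 80.4 ± 7.71 in the control (adjusted p = 0.305 and 0.567, limma). Another syndecan, Sdc2, had 67.6 ± 6.92 RPKM in FOXP2 clones and 81.2 ± 4.44 in FOXP2-CPED1 clones, against 87.4 ± 7.59 in the control. Lrp1, an endocytic receptor that associates with Pdgfrb, had 354 ± 85.2 and 326 ± 70.0 RPKM in the clones of each construct, against 423 ± 16.2 in the control.

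Among 12 measured genes for ligand processing and matrix binding, Plau fell with FOXP2. Plau, the urokinase plasminogen activator, had 2.84, 6.63, 4.25 and 3.61 RPKM in FOXP2 clones 1 to 4 and 4.60, 5.69, 4.80 and 17.9 RPKM in FOXP2-CPED1 clones 1 to 4, against 31.6 and 32.6 RPKM in the parental and vector controls. All 8 clones were below both controls, where 11.8% of all tested rows did not overlap in either direction. The log2 difference was -2.68 ± 0.46 with FOXP2 (adjusted p = 0.0401, limma) and -2.05 ± 0.46 with FOXP2-CPED1 (adjusted p = 0.142). Its value with FOXP2 stayed between -3.04 and -2.54 over all alternatives, but the call was lost with a pseudocount of 0.1 (adjusted p = 0.0546) or 0.25 (0.0530). It was also lost without either control, any 1 FOXP2 clone or any 1 of FOXP2-CPED1 clones 1 to 3 (0.0515 to 0.458), and without the 3 libraries with mitochondrial rows at 0 (0.178). Ext1, which builds heparan sulphate chains, had 38.4 ± 5.7 RPKM in FOXP2 clones, against 56.6 ± 2.06 in the control (adjusted p = 0.348). Hs6st1, which sulphates these chains, had 10.4 ± 0.573 RPKM in FOXP2 clones and 9.65 ± 1.1 in FOXP2-CPED1 clones, against 8.24 ± 0.237 in the control. Plat, the tissue plasminogen activator, did not follow Plau. It had 34.3 ± 5.05 RPKM in FOXP2 clones and 32.9 ± 8.37 in FOXP2-CPED1 clones, against 33.4 ± 4.11 in the control (log2 differences 0.03 and -0.06).

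Of 23 measured adaptors and kinases 0 passed. Pik3r1, the regulatory subunit of PI3K, had 12.9 ± 2.49 RPKM in FOXP2 clones and 14.3 ± 4.16 in FOXP2-CPED1 clones, against 6.36 ± 0.446 in the control (log2 differences 0.90 and 1.01, adjusted p = 0.253 and 0.21, limma). The adaptor Nck2 had 22.3 ± 4.14 RPKM in FOXP2 clones and 10.5 ± 2.93 in FOXP2-CPED1 clones, against 18.5 ± 0.97 in the control. The docking protein Gab2 had 4.68 ± 1.2 RPKM in FOXP2 clones and 5.66 ± 1.57 in FOXP2-CPED1 clones, against 8.05 ± 0.288 in the control. Of 13 tested inhibitors and feedback genes 0 passed, and 9 differences with FOXP2 and 10 with FOXP2-CPED1 were above 0. The 2 named here were below 0. The MAPK phosphatase Dusp6 had 27.2 ± 16.4 and 17.2 ± 5.93 RPKM in the clones, against 52.9 ± 1.54 in the control (adjusted p = 0.551 and 0.355). The Sprouty inhibitor Spry2 had 11.8 ± 4.84 and 7.94 ± 2.28 RPKM, against 19.8 ± 0.299 (adjusted p = 0.556 and 0.258).

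Of 11 transcriptional targets, Srf fell with both constructs and Egr1 with FOXP2-CPED1. For each construct 8 differences were below 0 and 3 above, those of Etv1, Etv4 and Etv5. None of these 3 passed, and the largest, Etv4, was at 0.99 with FOXP2 and 1.02 with FOXP2-CPED1 (adjusted p = 0.812 and 0.865, limma). Srf, the serum response factor, had 11.1, 17.2, 11.4 and 12.4 RPKM in FOXP2 clones 1 to 4 and 13.0, 11.5, 10.1 and 14.8 RPKM in FOXP2-CPED1 clones 1 to 4, against 56.5 and 50.4 RPKM in the parental and vector controls. The clones lay close together and far below both controls. The log2 difference was -1.98 ± 0.20 with FOXP2 (adjusted p = 0.00289, limma) and -2.04 ± 0.20 with FOXP2-CPED1 (adjusted p = 0.00594). Egr1, an immediate early zinc finger factor that growth factors induce, had 67.6, 58.4, 75.8 and 28.8 RPKM in FOXP2 clones 1 to 4 and 25.8, 40.1, 18.3 and 34.7 RPKM in FOXP2-CPED1 clones 1 to 4, against 174 and 180 RPKM in the parental and vector controls. For Srf and Egr1 all 8 clones were below both controls, where 11.8% of all tested rows did not overlap in either direction. The Egr1 log2 difference was -2.59 ± 0.38 with FOXP2-CPED1 (adjusted p = 0.0247, limma) and -1.69 ± 0.38 with FOXP2 (adjusted p = 0.130). Without the parental or the vector library no call of Srf or Egr1 was kept, at adjusted p = 0.0796 and 0.0661 for Srf with FOXP2, 0.115 and 0.0928 for Srf with FOXP2-CPED1, and 0.286 and 0.352 for Egr1 with FOXP2-CPED1. The Egr1 call was also lost without FOXP2-CPED1 clone 1, 2 or 3 (adjusted p = 0.0809, 0.0524 and 0.0638).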

How the data were processed

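RNA was measured by sequencing in 10 NIH3T3 cultures, and the authors deposited 1 table of RPKM values with 1 column for each library, per the file headers. HISAT2, StringTie and the genome build mm9 are named, per the submitters' processing notes. The sources used here do not give versions, annotation, strand setting or filters, but each row of the table reaches at least 0.5 RPKM in some library. Rows that name no gene (3581 of 18430, 3.37 to 4.54% of a library's summed RPKM) were left out. RPKM are not counts and absolute depth is unknown, so no counting interval is given. Values were taken as log2(RPKM + 1), for rows with 1 RPKM or more in at least 2 of 10 libraries. Differences on this scale understate those of low genes. limma 3.58.1 in R 4.3.3 fitted 3 arms with a trend, two-sided, with Benjamini-Hochberg adjustment over all 12842 rows and a threshold of 0.05. The fit was tested on simulated data.

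The genes, lists and tests were chosen with earlier results of these data known. Pathway genes were named if past the threshold or, per role and construct, among the 2 smallest p-values against the control. Plat is given beside Plau as the other listed plasminogen activator, and Etv1, Etv4 and Etv5 as the targets above 0. Genes like a member were the 3 nearest rows for the 3 most variable members. No listed gene with its own row failed the filter, so no permutation test was needed. The other planned ratios, Pdgfa to Pdgfb, Fgfr1 to Fgfr2 and Fgf2 to Fgf7, would need joined or missing rows and were not made. Alternatives were a pseudocount of 0.1 or 0.25, no filter or a mean of 5 RPKM, quantile or median ratio scaling, no trend, library quality weights, fits of single pairs of arms, a clone number block, and each library left out. Leaving out the 3 libraries that lack mitochondrial RPKM and summing both Pdgfrb rows were added after seeing the data. Genes that share reads with pseudogenes or overlapping genes are uncertain.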

Additional observations from a re-analysis of the deposited data

How the results depend on the processing

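Of 1495 values recomputed under 22 alternatives, 1362 were unchanged. A log2 difference was unchanged if it kept its direction and its side of the threshold. A count of called genes was unchanged if it was equal or close to the main count. The counts of called genes depended mostly on library quality weights, with which 2 genes with their own row (Pdgfa and Fgfr1) were called with FOXP2 and 1 with all clones, and 16, 13 and 16 pathway genes with FOXP2, FOXP2-CPED1 and all clones. With FOXP2, the pathway count was 1 with a pseudocount of 0.1 or 0.25 and 1 without the 3 libraries that lack mitochondrial RPKM. With each library left out in turn it ran from 0 to 2 with FOXP2, 0 to 3 with FOXP2-CPED1 and 0 to 3 with all clones. Without the parental library the 56, 45 and 69 rows called in all with FOXP2, FOXP2-CPED1 and all clones were 2, 0 and 2, and without vector 3, 2 and 3, so the 2 controls limit every call. The count with FOXP2 was 9 when FOXP2 and control were fitted alone and 2095 with quality weights. With those weights the log2 difference turned for Pdgfc (-0.13 with FOXP2 and -0.0458 with all clones), Pdgfrb (0.0114 with FOXP2), Fgf10 (0.0283 with FOXP2 and 0.15 with FOXP2-CPED1) and, between constructs, Pdgfa (0.17) and Pdgfrb (-0.18). Without the 3 libraries it turned for Pdgfc (-0.0346), Pdgfrb (0.0127), Fgf10 (0.12) and Fgf11 (0.28) with FOXP2 and for the Fgfr2 row (-0.0924) with FOXP2-CPED1. Between constructs it then turned for Pdgfa (0.44), Pdgfra (-1.10), Pdgfrb (-0.45), Fgfr1 (-0.40) and the Fgf7 row (-0.0708). With each library left out, log2 differences that turned ran, between constructs, from -0.11 to 0.21 for Fgfr1, -0.10 to 0.29 for the Fgf7 row, -0.26 to 0.19 for Pdgfa, -0.095 to 0.0836 for Pdgfc, -0.31 to 0.56 for Pdgfra and -0.0918 to 0.42 for Pdgfrb. Against the control they ran from -0.45 to 0.0038 for Pdgfa, -0.29 to 0.58 for Pdgfra and -0.33 to 0.0254 for Fgf11 with FOXP2. With FOXP2-CPED1 they ran from -0.20 to 0.19 for Fgf10, -0.27 to 0.00026 for Fgf11 and -0.0924 to 0.13 for the Fgfr2 row. With all clones they ran from -0.0092 to 0.43 for Pdgfra and -0.0957 to 0.0142 for the Fgfr2 row. None of these turned values was past the threshold on either side. The cause was not tested. With clone number as a replicate block between constructs, Pdgfra was 0.04, Fgfr1 0.02 and the number of called genes 0, so the block changed no call. Same-numbered clones deviated with correlations of -0.0357, -0.24, 0.281 and 0.166, so they share only a number. The fit of only the arms compared was not run for all clones. With 4 clones and 2 controls the intervals against the control were wide. They span more than 1 unit on the log2 scale for Pdgfa, Pdgfra, Pdgfrb, Fgfr1 and the Fgf7 row.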

Other observations

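The 3 clones with the lowest receptor levels also stood at an end of the order for 9 of the 71 tested pathway genes, which were picked out after their values were seen. These 9 are 12.7% of the 71, beside 11.6% of all tested rows, so the count is near the share found anywhere in the table. They were the 3 lowest libraries for Fgf10, Fgf11, Nrp1, Ndst1, Plcg1 and Nck1, and the 3 highest for Cspg4, Ptpn11 and Ccnd1. Fgf10 had 11.1, 6.51, 12.0 and 8.61 RPKM in FOXP2 clones 1 to 4 and 10.2, 12.7, 13.9 and 5.61 RPKM in FOXP2-CPED1 clones 1 to 4, against 9.85 and 11.3 RPKM in the parental and vector controls. Cspg4, the NG2 proteoglycan, which binds PDGF-A and FGF2, ran the other way. It had 27.8, 31.8, 8.20 and 52.6 RPKM in FOXP2 clones 1 to 4 and 11.2, 23.6, 23.6 and 43.0 RPKM in FOXP2-CPED1 clones 1 to 4, against 27.9 and 29.1 RPKM in the parental and vector controls. Ccnd1, the cyclin D1 gene that growth factors induce in the first gap phase, had 42.7, 114, 15.4 and 56.7 RPKM in FOXP2 clones 1 to 4 and 32.1, 36.0, 26.5 and 109 RPKM in FOXP2-CPED1 clones 1 to 4, against 46.9 and 48.5 RPKM in the parental and vector controls. FOXP2 clone 3, with the highest Pdgfra of all libraries, had the lowest Cspg4 and the lowest Ccnd1. These orders were not tested.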
